A study of Homo sapiens with 12 samples.

Results

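The cytosolic chaperone genes studied here were 38 genes of the HSP90, HSP70 and CCT systems, chosen by their symbols from the 58288 genes that the tables list by Ensembl identifier. They code for the 2 cytosolic HSP90 proteins and 6 of their cochaperones, 7 genes of the HSP70 and HSP110 families, the small heat shock protein HSPB1, 2 heat shock factors, 6 J-domain proteins, 3 other HSP70 cofactors, the 8 subunits of the CCT ring and 3 subunits of prefoldin. RNA-Seq had been performed in HPB-ALL and KOPTK1, established human T-cell acute lymphoblastic leukemia (T-ALL) lines. In each line, 3 libraries came from cells infected with a pLKO.1 lentivirus expressing shRNA against GFP as a control, and 3 from cells infected with the same vector expressing shRNA against SHQ1, 12 libraries in all. All cells, controls included, were kept in puromycin at 2 μg/ml for 48 h. SHQ1 is an assembly factor of H/ACA small nucleolar ribonucleoproteins, and HSP90 serves the assembly of such particles together with the R2TP complex.

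Chaperones bind proteins that are not yet folded. HSP70 proteins hold short exposed stretches of a chain in a cycle of ATP binding and hydrolysis that J-domain proteins start and nucleotide exchange factors reset, HSP90 receives many kinases, receptors and assembly factors at a later stage, and the CCT ring encloses actin, tubulin and other clients, some of them delivered by prefoldin. Most of these genes are active in every growing cell. A smaller set, with HSPA1A, HSPA1B and HSPA6 as the classical examples, is kept low and is switched on by heat shock factor 1 (HSF1) when unfolded protein accumulates.

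What could be compared was the level of each gene between the lines. The tables give 1 average log2 CPM (read counts scaled to library size) for each gene and line, taken by the authors over the 6 libraries, so control and SHQ1-depleted cells are averaged together. The values of single libraries carry no sample label and were not used. The knockdown is therefore not compared with its control, no library depth or replicate error is known, and no difference below has a replicate check or a test. Levels are given as mean RPKM, obtained by dividing the average CPM by the exon length of the gene in kilobases. Genes whose mean RPKM reached 1 in either line, 25479 in all, were retained for comparison. Differences are given as KOPTK1 minus HPB-ALL on the log2 CPM scale, across tables that were normalized separately. A difference between the lines and an unequal effect of the knockdown on the averages cannot be told apart.

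The T-lymphoid label was checked against 10 marker genes, all of which were above a mean RPKM of 1 in each line, with a summed mean RPKM of 964 in HPB-ALL and 1009 in KOPTK1. CD3D, a chain of the T-cell receptor complex, was at 295 and 301. Of the 10 markers, 2 were past 2-fold, both higher in KOPTK1. These were CD2, at 13.7 in HPB-ALL and 47.8 in KOPTK1, and DNTT, at 11.9 and 57.4. PTCRA was the lowest of the 10, at 2.53 and 4.32. Of 16 markers of other cells, the B-cell receptor chain CD79A was the exception, at 43.3 in HPB-ALL and 16.1 in KOPTK1, and the summed mean RPKM of the 4 B-cell markers was 43.8 and 17.5. The 4 myeloid markers summed to 0.821 and 1.27, the 3 erythroid markers to 2.39 and 2.28, and the 5 stromal and epithelial markers to 1.51 and 1.51. SHQ1 itself had a mean RPKM of 59.5 in HPB-ALL and 43.3 in KOPTK1, a difference of -0.46, and its depletion could not be checked in such averages. The differences reached much farther on one side than on the other. Of the 12126 retained genes that code for proteins, 288 were at least 4-fold higher in KOPTK1 and 0 were at least 4-fold higher in HPB-ALL, where the difference went no lower than -1.82. This corresponds to at most 3.53-fold, against up to 67.6-fold on the side of KOPTK1. Over all 25479 retained genes, 723 were at least 4-fold higher in KOPTK1 and 5 in HPB-ALL, and the lowest difference was -2.44. Every member that was lower in KOPTK1 lies on this shortened side. Whether each library held RNA of its labelled line alone could not be checked in the averages. If the KOPTK1 average included RNA of HPB-ALL, every KOPTK1 level and difference given here would be drawn toward HPB-ALL, and this was not tested.

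To show the DNA that precedes the genes with the largest difference, the 250 bases upstream of a transcript start are given for HSPA1A, HSPA1B and HSPA6, followed by HSPA8, HSP90AA1 and HSP90AB1, the members with the highest levels. Where RefSeq gives several starts, the window with the most heat shock elements was taken. For HSP90AA1 this was start 1 of 2 and for HSP90AB1 start 3 of 3, and their other windows held no such element. The upstream sequences of both lie within their genes as the tables outline them. Those of HSPA1A, HSPA1B and HSPA8 overlap the outlined gene in part. Sequences are from RefSeq on GRCh38.p14, written 5′ to 3′ on the strand of the gene, and capitals mark heat shock elements, the binding motif of heat shock factors, in inverted GAA units.
HSPA1A, chr6:31815293-31815542 (plus strand): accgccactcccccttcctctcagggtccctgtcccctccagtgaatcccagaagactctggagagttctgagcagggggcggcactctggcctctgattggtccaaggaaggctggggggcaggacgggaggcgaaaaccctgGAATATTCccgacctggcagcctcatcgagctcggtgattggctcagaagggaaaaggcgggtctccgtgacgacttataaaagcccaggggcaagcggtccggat
HSPA1B, chr6:31827488-31827737 (plus strand): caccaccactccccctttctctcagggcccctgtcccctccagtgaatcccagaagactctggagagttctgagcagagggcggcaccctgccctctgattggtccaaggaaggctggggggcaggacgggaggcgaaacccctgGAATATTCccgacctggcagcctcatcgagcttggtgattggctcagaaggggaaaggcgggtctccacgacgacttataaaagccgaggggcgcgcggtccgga
HSPA6, chr1:161524290-161524539 (plus strand): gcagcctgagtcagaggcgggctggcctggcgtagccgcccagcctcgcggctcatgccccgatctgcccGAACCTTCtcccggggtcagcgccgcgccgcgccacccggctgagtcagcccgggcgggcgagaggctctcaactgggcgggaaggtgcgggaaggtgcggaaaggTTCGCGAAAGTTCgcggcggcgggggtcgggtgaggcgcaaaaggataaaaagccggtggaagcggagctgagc
HSPA8, chr11:123062137-123062386 (minus strand): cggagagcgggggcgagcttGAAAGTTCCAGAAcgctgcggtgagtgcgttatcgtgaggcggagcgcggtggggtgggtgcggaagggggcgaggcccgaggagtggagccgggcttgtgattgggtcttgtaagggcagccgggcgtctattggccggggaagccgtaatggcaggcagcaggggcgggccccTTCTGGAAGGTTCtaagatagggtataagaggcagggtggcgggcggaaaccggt
HSP90AA1, chr14:102087045-102087294 (minus strand): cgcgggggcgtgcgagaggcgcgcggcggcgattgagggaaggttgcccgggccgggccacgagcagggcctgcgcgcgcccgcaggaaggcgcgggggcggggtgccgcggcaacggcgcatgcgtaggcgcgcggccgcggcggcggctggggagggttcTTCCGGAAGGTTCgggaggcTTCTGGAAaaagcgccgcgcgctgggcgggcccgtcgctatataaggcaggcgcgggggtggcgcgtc
HSP90AB1, chr6:44247693-44247942 (plus strand): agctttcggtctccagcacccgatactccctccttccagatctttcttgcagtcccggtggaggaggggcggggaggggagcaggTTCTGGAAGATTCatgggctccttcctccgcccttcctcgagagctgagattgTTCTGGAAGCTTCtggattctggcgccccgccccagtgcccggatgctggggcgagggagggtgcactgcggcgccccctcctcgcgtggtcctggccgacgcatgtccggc

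A 2-unit element (GAANNTTC or TTCNNGAA, each its own reverse complement) and a 3-unit element (GAANNTTC continued by NNGAA, or TTCNNGAA continued by NNTTC, which are reverse complements of each other and hold 2-unit elements within them) were searched on both strands in windows of 250 bases before and 50 after each RefSeq start. Windows were given for 31 of the 38 members and not for CCT6A, FKBP4, HSF1, HSPA14, PFDN2, ST13 and STUB1. A 3-unit element was present in 5 of the 31 members (16.1%), HSPA8, HSP90AA1, HSP90AB1, DNAJA1 and DNAJB6, and in 0.537% of 15842 protein-coding genes or 0.49% of all 35116 windows. HSPA8 and one start of HSP90AB1 each held 2. A 2-unit element was present in 16 of the 31 members (51.6%), against 14.9% of protein-coding genes and 13.5% of windows. The 2-unit element of HSPA1A began 106 bases before the start and that of HSPA1B 105 bases before it. These upstream sequences matched each other in 235 of 251 aligned positions (93.6%). The CCAAT box (CCAAT or ATTGG) was present in 14 of the 31 members, or 45.2%, and in 42.1% of protein-coding genes, and the E-box CACGTG in 2 members (FKBP5 and HSF2), or 6.45%, and in 10.9%. Heat shock elements with inexact units were not searched, so further units beside those marked are not counted. These matches describe letters in a window and not binding.

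All 38 members were above a mean RPKM of 1 in each line and none was lost to the filter, and 22 in HPB-ALL and 25 in KOPTK1 ranked among the first 1000 of 19025 protein-coding genes ordered by mean RPKM. HSPA8, the constitutive HSP70 of the cytosol, was the most abundant member, with a mean RPKM of 497 in HPB-ALL and 494 in KOPTK1 and rank 8 in both lines. The HSP90 genes followed. HSP90AB1, the constitutive form, was at 414 and 356, and HSP90AA1, the more inducible form, at 380 and 371. Their order changed with the line, HSP90AB1 being 1.09 times HSP90AA1 in HPB-ALL and 0.960 times in KOPTK1, ratios close enough to 1 that no order between them is drawn. The lowest members were HSPA1A (3.17) and DNAJB4 (4.58) in HPB-ALL, and DNAJB4 (4.89) and HSPA4L (6.89) in KOPTK1. Across the 38 members, the log2 mean RPKM of the lines correlated with a Pearson's r of 0.875, and across the 36 members other than HSPA1A and HSPA1B with 0.978. Both genes were left out for their large differences in these same data, so the rise in r follows from that choice. Over all retained genes, with none left out, r was 0.910. These correlations are across genes that share the libraries and their normalization. Together the members took 10706 CPM in HPB-ALL and 10414 CPM in KOPTK1. No spread is known for any level, and the order of neighbouring members was not tested.

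Between the lines, HSPA1A and HSPA1B stood apart. Both code for the stress-inducible HSP70 and lie 12271 bases apart, start to start, in the major histocompatibility region (GRCh38 chromosome 6, 31815464 to 31817946 and 31827735 to 31830255, plus strand). HSPA1A had a mean RPKM of 3.17 in HPB-ALL and 36.4 in KOPTK1, a difference of 3.52 on the log2 CPM scale or 11.5-fold. HSPA1B was at 37.2 and 297, a difference of 2.995 or 7.97-fold, and ranked 1568 in HPB-ALL and 51 in KOPTK1 among protein-coding genes. They were the 2 of 38 members past 2-fold, both higher in KOPTK1. Of all 25479 retained genes, 11.9% were past 2-fold, 8.1% on the side of KOPTK1 and 3.81% on that of HPB-ALL, so the count of members was no higher than that of genes in general. On the side of KOPTK1, the share was 5.71% among protein-coding genes and 3.67% with a minimum mean RPKM of 10. The differences of these 2 ranked 121 and 160 from the top among 12126 protein-coding genes. Past 1.5-fold lay 5 members, HSPA1A, HSPA1B, DNAJB1, FKBP5 and HSPB1, all higher in KOPTK1, against 26.6% of retained genes in either direction and 16.8% higher in KOPTK1. Among protein-coding genes these shares were 21.8% and 10.9%, and with a minimum mean RPKM of 10 they were 16.1% and 9.19%. By any amount, 29 of the 38 members were lower in KOPTK1, against 45.6% of retained genes and 56.5% of those that code for proteins.

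The transcripts of HSPA1A and HSPA1B are nearly the same. Of all 150-base windows of the HSPA1A transcript, the length of a read, 69.6% occurred unchanged in HSPA1B, so that reads cannot always be assigned and the 11.8-fold (HPB-ALL) and 8.16-fold (KOPTK1) higher mean RPKM of HSPA1B is uncertain. Reads were sequenced in pairs, and the window shares given here describe single reads. The share of pairs that cannot be assigned was not computed and may be lower. Summed, an addition made after the values were seen, both genes had 102 CPM in HPB-ALL and 839 CPM in KOPTK1, a difference of 3.04. Of the summed mean RPKM of HSPA8, HSPA1A and HSPA1B, the latter pair made up 7.53% in HPB-ALL and 40.3% in KOPTK1, with HSPA8 making up the rest. Of the 150-base windows of HSPA1B, 70.1% occurred in other genes, and of those of HSPA8 none did. How shared reads were counted is not known. If they were left out, the sums, shares and ranks of the pair would be too low in both lines. HSPA8 itself hardly differed, at -0.01. HSPA6, another stress-inducible HSP70 gene, which is no member but was listed among other chaperone genes, was at 7.34 and 89.4, a difference of 3.61 (12.2-fold). It lies on another chromosome (chromosome 1, 161524540 to 161526910), and 15.3% of its 150-base windows occurred in the related HSPA7 and none in HSPA1A or HSPA1B. Within 100 kb on either side of the HSPA1A and HSPA1B pair, a window chosen after the values were seen, the 20 other retained genes had a median difference of -0.02 and a range from -1.04 to 1.001.

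Other genes of the heat shock response differed less between the lines. DNAJB1, the J-domain partner of inducible HSP70, was at 47.2 in HPB-ALL and 81.9 in KOPTK1 (0.79, or 1.73-fold). HSPB1, a small heat shock protein that holds unfolded chains without ATP, was at 47.6 and 73.8 (0.63). DNAJB6, a J-domain protein that suppresses aggregation, was at 36.3 and 53.0 (0.55). With FKBP5, these had the next highest differences of all members on the side of KOPTK1. HSPH1, an HSP110 nucleotide exchange factor, was in contrast at 56.1 and 55.5 (-0.02). BAG3, a cofactor that links HSP70 to autophagy, was at 13.03 and 11.5 (-0.18), and HSP90AA1 differed by -0.04. The factors themselves differed little. HSF1 was at 43.97 and 46.7 (0.09) and HSF2 at 14.7 and 17.9 (0.29), so that HSF1 was 2.99 times HSF2 in HPB-ALL and 2.60 times in KOPTK1. After each line was centred on its median, HSF1 turned to -0.01.

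The HSP90 cochaperones were mostly somewhat lower in KOPTK1, with a median of -0.27 over 6 genes. PTGES3 (p23), which stabilises the closed form of HSP90, was the most abundant, at 158 in HPB-ALL and 138 in KOPTK1. CDC37, which brings kinases to HSP90, was at 115 and 93.6. STIP1 (HOP), which holds HSP70 and HSP90 side by side, was at 112 and 89.7, and AHSA1, which speeds up the HSP90 ATPase, at 72.1 and 60.6. The immunophilins FKBP4 and FKBP5 went in different directions. FKBP4 (FKBP52) was at 51.4 and 40.5 (-0.34), and FKBP5 (FKBP51), a well-known target gene of steroid receptors, at 12.8 and 21.5 (0.75, or 1.68-fold). FKBP4 was thus 4.03 times FKBP5 in HPB-ALL and 1.88 times in KOPTK1. With the length of the MANE Select transcript in place of all exons, these ratios were 1.45 and 0.677, so their order within KOPTK1 depends on the length used.

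Among the other genes of the HSP70 system, HSPA4 (APG-2), an HSP110 exchange factor, was at 59.0 and 49.1 (-0.26). Its relative HSPA4L was at 10.2 and 6.89 and had the most negative difference of all members, at -0.57, which left HSPA4 at 5.76 times HSPA4L in HPB-ALL and 7.13 times in KOPTK1. HSPA14, an HSP70-like protein of the ribosome, was at 17.3 and 14.4 (-0.27). Exons of other genes cover 55.5% of its exon bases, and reads there may not be its own. DNAJA1 was the most abundant J-domain gene, at 154 and 133 (-0.21), against 30.2 and 25.1 (-0.27) for DNAJA2. DNAJB4 was the least abundant of them, at 4.58 and 4.89 (0.09). DNAJC7, which binds both HSP70 and HSP90, was at 50.1 and 49.2 (-0.03). ST13 (HIP), which slows the release of clients from HSP70, was at 62.3 and 59.5 (-0.07). STUB1 (CHIP), the ubiquitin ligase that directs chaperone clients to the proteasome, was at 29.6 and 28.8 (-0.04). Other genes share 37.5% of the exon bases of DNAJC7 and 42.6% of those of STUB1.

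All 8 CCT genes were lower in KOPTK1, within a narrow range of differences from -0.26 (TCP1) to -0.48 (CCT7) and with a median of -0.41. The median difference was 0.05 over all retained genes and -0.07 over those that code for proteins, of which 45.6% and 56.5% were lower in KOPTK1. None of the 8 was past 1.5-fold on this side, where 9.73% of retained genes were. Summed, the 8 genes had 2992 CPM in HPB-ALL and 2306 CPM in KOPTK1. In HPB-ALL the subunits ran from TCP1 (218), CCT3 (199) and CCT7 (195) over CCT2 (147), CCT8 (139) and CCT6A (128) to CCT4 (99.8) and CCT5 (87.3). In KOPTK1 the order was TCP1 (183), CCT3 (155), CCT7 (139), CCT2 (110), CCT6A (106), CCT8 (101), CCT4 (75.4) and CCT5 (64.0). With summed exon lengths CCT8 and CCT6A exchanged places between the lines. With MANE Select lengths they did not (CCT8 at 160 and 116, CCT6A at 135 and 112), and CCT4 and CCT5 exchanged places instead (CCT5 at 106.9 and 78.4, CCT4 at 105.8 and 79.9), so no order is drawn within these pairs. The subunits are built into the ring in equal number. The highest mean RPKM was 2.502 times the lowest in HPB-ALL and 2.85 times in KOPTK1, or 2.19 and 2.47 times with MANE Select lengths. Exons of another gene cover 43.6% of the exon bases of CCT5. The 3 prefoldin members were lower in abundance than any CCT gene. PFDN2 was at 50.6 and 42.5 (-0.25), PFDN4 at 17.9 and 17.7 (-0.02) and PFDN6 at 16.7 and 12.9 (-0.37). With MANE Select lengths PFDN6 was at 59.3 and 45.9 and PFDN2 at 57.3 and 48.1, so the place of PFDN6 among them depends on the length used. Of the prefoldin subunits that are no members, PFDN5 was at 89.7 and 84.4, above CCT5 in both lines. PFDN1 was at 51.8 and 53.8 and VBP1 at 39.0 and 34.3.

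The R2TP complex, through which HSP90 acts on snoRNP proteins, was read beside these members. The ATPase RUVBL1 was at 33.1 in HPB-ALL and 35.9 in KOPTK1 (0.12), and its partner RUVBL2 at 85.0 and 53.7 (-0.66). PIH1D1 was at 39.1 and 32.7 (-0.26), and RPAP3, which contacts HSP90, at 19.7 and 17.5 (-0.17). Of 53 other chaperone genes chosen by function, 49 were retained, and 2 of these were past 2-fold, against 11.9% of all retained genes. They were HSPA6 and HSF4, a heat shock factor best known from the lens, which was at 8.29 and 4.02 (-1.04). The median difference over the 53 genes was -0.25, against -0.21 over the 38 members. Of these genes, the 12 other HSP90 cochaperones had a median of -0.21. The 19 others of the HSP70 system and the small heat shock proteins, of which 15 were retained, had one of -0.08. The 6 other prefoldin and CCT genes had a median of -0.05, with 2 higher and 4 lower in KOPTK1.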

How the data were processed

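Total RNA was depleted of rRNA, and 12 libraries were sequenced, 3 for each shRNA in each cell line. The submitters' processing notes name Trimmomatic 0.36, STAR 2.5.4b, Picard 2.18.7, featureCounts 1.6.2, edgeR 3.22.3 and hg38, whereas the methods name Bowtie 2 and hg19 for the splicing analysis. All 38 members overlapped their RefSeq GRCh38 position. The authors deposited 1 table per line, and from each the average log2 CPM and the summed exon length were used. How reads from near-identical or overlapping genes were assigned is not given in the sources used here. The 12 columns of library values are headed by numbers that match no sample label and were not used, and depth is therefore unknown. The tables also hold the authors' own comparison (its fold change, test statistic, p-value and false discovery rate), which was not used. The planned knockdown tests (edgeR or limma) were therefore not run.

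The average log2 CPM was converted to the linear scale and divided by the length in kilobases to give the mean RPKM. Genes reaching a mean RPKM of 1 in either line were retained and set against a fold of 2, a description without a p-value. Steps used Python 3.11.15 with pandas 2.3.3. On simulated data, only the 2-fold threshold was tried, with shifts larger than it, and the search for a planted 3-unit element. Symbols were found for 95.9% of the identifiers. Biotypes were RefSeq's, transcripts GENCODE release 44 on GRCh37, used for sequence and length only. Named were all members, the R2TP genes, SHQ1, and other chaperone genes past 2-fold. CD2, CD3D, CD79A, DNTT, PTCRA, HSPA7, PFDN1, PFDN5 and VBP1, and the endoplasmic reticulum and mitochondrial genes among the other observations, were named after their values were seen. Members and lists were chosen with earlier results of these data known. Alternatives were no filter, a minimum of 10, a fold of 1.5, median centring, a pseudocount of 1 CPM and, added after seeing the data, protein-coding genes only, the sum of HSPA1A and HSPA1B and the correlation without them.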

Additional observations from a re-analysis of the deposited data

How the results depend on the processing

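The count of members past 2-fold was 2 without a filter, with a minimum mean RPKM of 10, with median centring, with a pseudocount of 1 CPM and among protein-coding genes only, and was 5 with a fold of 1.5, all of them higher in KOPTK1. Of the other chaperone genes, 2 were past 2-fold, 1 with a minimum mean RPKM of 10, 1 with a pseudocount of 1 CPM, 9 with a fold of 1.5 (8 of them higher in HPB-ALL, where 9.73% of all retained genes were past 1.5-fold) and 3 without a filter. The gene added without a filter was CRYAB, at a low mean RPKM of 0.26 in HPB-ALL and 0.61 in KOPTK1 (1.23). HSF4 was below the minimum of 10, and the pseudocount draws low values together. Of 76 member values under centring and pseudocount, 74 kept their sign and their side of 2-fold. HSF1 and DNAJB4 turned to -0.01 and -0.0043 with centring, which moved every difference by 0.10. With the minimum of 10, 5.64% of all genes were past 2-fold, and among protein-coding genes 9.77%. No paired analysis was possible because the values of single libraries could not be assigned to samples, and no replicate could be left out.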

Other observations

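Chaperones of other compartments were lower in KOPTK1 too. By any amount, 45.6% of all retained genes were lower in KOPTK1, and 56.5% of those that code for proteins. The median differences of these sets were 0.05 and -0.07. All 6 genes of the endoplasmic reticulum had a negative difference, with a median of -0.47. HSPA5 (BiP), the HSP70 of this compartment, was at a mean RPKM of 82.9 in HPB-ALL and 52.9 in KOPTK1 (-0.65), HSP90B1 (GRP94) at 145 and 98.8 (-0.56) and HYOU1 at 67.6 and 47.0 (-0.52). All 6 mitochondrial genes were negative as well, with a median of -0.46. The chaperonin HSPD1 (HSP60) was at 287 and 187.2 (-0.62), its lid HSPE1 at 65.0 and 41.5 (-0.65), and the mitochondrial HSP70 HSPA9 at 123 and 97.1 (-0.35). These 12 genes, of which none was past 2-fold, lie on the side of HPB-ALL on which differences of all protein-coding genes ended at -1.82, and the cause of that limit was not tested.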
